A study of Mus musculus with 6 samples.

Results

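The cell cycle and DNA replication genes described here are 56 named genes, 32 of the G1/S transition and DNA replication and 24 of G2 and mitosis. They were chosen by name, out of 18194 genes with a symbol of their own on the array, and grouped by the step of the cycle they serve. Of the 56, 55 were measured under their own symbol and passed the limit on low values, a log2 level of at least 4 on at least 3 arrays. Ccnb1, which encodes cyclin B1, was not measured under a symbol of its own, so its expression was not analysed. The limit excluded no other member, since the lowest value of any member on any array was 6.14.

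The double knockout (dKO) nerves, labelled DhhCre+ HDAC1-2 dKO, lacked the histone deacetylase genes Hdac1 and Hdac2 in Schwann cells, the glia that wrap peripheral axons. Control nerves came from littermates labelled DhhCre–, and no label states which other alleles those pups carried. Both groups were sciatic nerves of mixed strain taken on postnatal day 2 with the perineurium removed, and each of 3 dKO and 3 control samples was measured on 1 Affymetrix Mouse Genome 430 2.0 array. The Cre transgene is named for desert hedgehog, a gene that Schwann cells and their precursors express, so nerve cells outside the lineage that expressed Cre kept both deacetylases and contributed RNA to every sample.

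A cell that enters the cycle first makes D-type cyclins, whose kinases Cdk4 and Cdk6 phosphorylate the retinoblastoma protein and release E2F transcription factors. E2F factors then raise cyclin E and the genes that license origins, supply nucleotides and copy DNA. Later, the MuvB complex with B-Myb and FoxM1 drives the genes of mitosis, many of them through a promoter element called the cell cycle homology region (CHR). Immature Schwann cells divide along growing axons and leave the cycle when they start to form myelin around birth, so nerves of this age hold both cycling and non-cycling Schwann cells.

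Values are log2 expression per probe set, given for each array or as mean ± SD with n = 3 per group. Changes subtract the control mean from the dKO mean and carry a standard error (SE), and a gene was called where the limma fit over all 14550 tested genes gave a Benjamini-Hochberg adjusted p under 0.05. Hdac1 read 8.75, 8.96 and 8.85 on dKO arrays 1 to 3, against 10.48, 10.38 and 10.36 on control arrays 1 to 3 (change -1.55, SE 0.13, adjusted p = 0.000271). Hdac2 read 11.22, 10.81 and 11.19 in dKO, against 12.34, 12.33 and 12.33 in control (change -1.26, SE 0.15, adjusted p = 0.00103). Both targeted genes were lower on every dKO array than on any control array. Both sexes were present in both groups, with Xist, which coats the inactive X, at 11.67 and 11.24 on dKO 2 and dKO 3, and at 11.55 on control 2. On the other arrays it was at 4.69 in dKO 1, and at 5.31 and 4.14 in control 1 and control 3. Of 8 Schwann cell markers tested, 1 was higher and 3 were lower in dKO nerves, against 12.6% and 9.38% of all genes. Their median log2 change was -0.455. The change was above 0 for 3 of the 8 and below 0 for 5. The marker called higher was Ngfr, at 10.54, 10.82 and 10.32 in dKO, against 9.64, 9.4 and 9.63 in control. On their brightest probe sets, Mbp, S100b and Erbb3 changed by -1.37, -1.33 and -1.33 and were called lower. Foxd3, Gfra3 and Cdh19 changed by 0.46, 0.04 and -0.55 without a call. Sox10, a defining factor of the lineage, averaged 10.32 ± 0.37 in dKO and 10.68 ± 0.44 in control. Its change of -0.36 was not called.

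Some genes of the G1/S transition and replication rose in dKO nerves, among them Ccne1, Rrm2, Rfc3 and Gmnn. Of the 32 G1/S and replication genes, 11 (34.4%) were called higher and 0 lower, with a median log2 change of 0.48, which is 1.40-fold. Of the 23 G2/M genes, 2 (8.7%) were called higher and 0 lower, with a median log2 change of 0.29, or 1.22-fold. Over all genes tested, 12.6% were called higher and 9.38% lower, or 22% in either direction, with a median change of 0.01, so the G1/S share lies above the background and the G2/M share near it. At an unadjusted p under 0.05, 19 G1/S genes were higher and 1 lower, and 7 G2/M genes were higher and 0 lower. Of all 14550 genes tested, 2842 were higher and 2145 lower at that threshold. On the brightest probe set of each gene, Ccne1 was the only member with a log2 change over 1, and Ccnd2 joined it when probe sets were averaged. The difference between the G1/S and G2/M genes was not tested.

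Both counts depended on single arrays. Without dKO 1 or control 2 the G1/S count was 7 and 5, against 9.95% and 8.85% of all genes called higher in those fits. With sex as read from Xist in the fit the G1/S count was 7, against 9% of all genes. The G2/M count was 1 without dKO 1 or dKO 2 and 0 without control 2 or control 3.

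**Figure D1:**
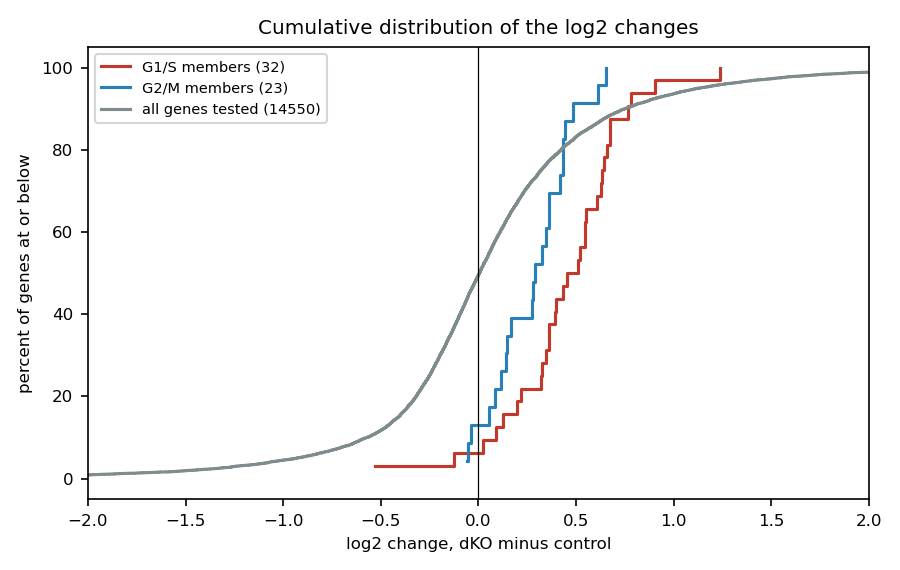
Cumulative distribution of the log2 change, dKO minus control (x axis), with the percent of genes at or below each value on the y axis, for 32 G1/S and replication genes (red), 23 G2/M genes (blue) and all 14550 genes tested (grey). The median lies at 0.48 for the red line, 0.29 for the blue line and 0.01 for the grey line.

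Most members lay on the same side without being called. A change above 0 was seen for 30 of 32 G1/S genes and 20 of 23 G2/M genes, against 50.6% of all genes tested. All dKO values lay above all control values for 19 G1/S genes (59.4%) and 10 G2/M genes (43.5%), against 22.6% of all genes. All dKO values lay below all control values for 2 G1/S genes, Ccnd1 and Rb1, and for 0 G2/M genes, against 18.4% of all genes. RNA came from nerve samples that held several cell types. More cells in the cycle, more RNA per cycling cell and a changed mix of cell types cannot be told apart.

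The arrays differed in how far the members moved. Relative to the control mean of each gene, the median over the G1/S genes was 0.38, 0.47 and 0.60 on dKO 1, dKO 2 and dKO 3, against 0.11, -0.06 and -0.01 on control 1, control 2 and control 3. The corresponding G2/M medians were 0.29, 0.35 and 0.21 on the dKO arrays, against 0.10, -0.09 and -0.02 on the control arrays. The groups did not overlap for either set of genes, although control 1 stood above the other 2 controls in both. Control 1 was the highest control array for 33 of the 55 members. Among dKO arrays, dKO 3 was the highest for 19 of 32 G1/S genes and the lowest for 11 of 23 G2/M genes. Over all genes tested, the median on dKO 3 was 0.08, against -0.04 to -0.01 on the other dKO arrays and -0.01 to 0.01 on control arrays.

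**Figure D2:**
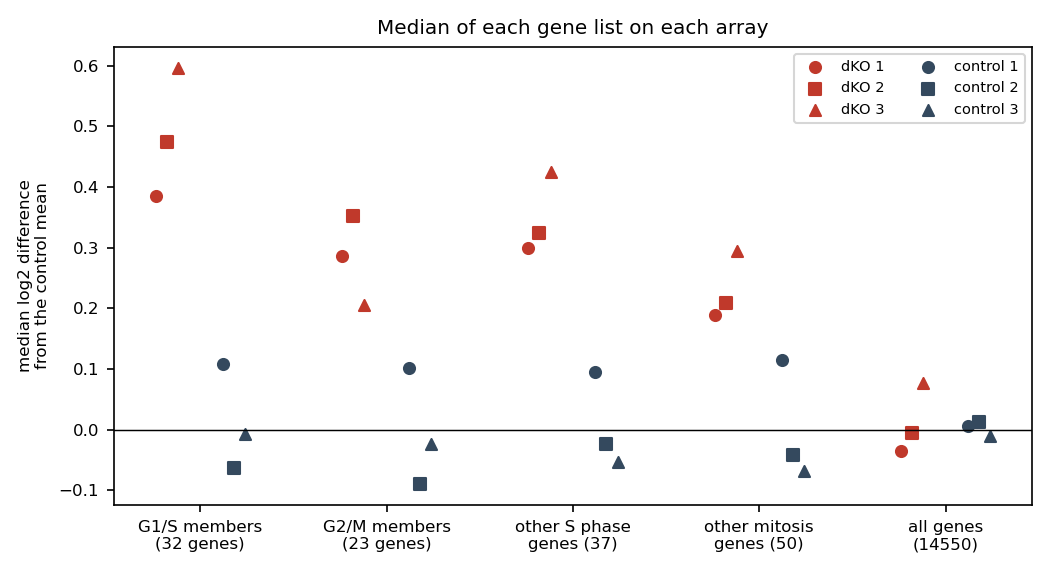
Median log2 difference from the control mean of each gene (y axis) on each dKO array (red) and control array (dark), for the G1/S genes, the G2/M genes, other S phase genes, other mitosis genes and all genes. Each symbol is 1 array, and the 3 dKO arrays lie between 0.38 and 0.60 for the G1/S genes, against -0.06 to 0.11 for the control arrays.

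The promoters of both groups of genes were searched for known cell cycle elements. RefSeq promoters of mouse assembly GRCm38.p6, from 250 bases before to 50 bases after each annotated start, were found for 45 of the 56 members, 25 of G1/S and 20 of G2/M. Both strands were read for an E2F site (TTCCCGC or TTGGCGC), the CHR element (TTTGAA) and the CCAAT box bound by NF-Y (CCAAT). An E2F match was present in 15 of 25 G1/S genes (60%) and 3 of 20 G2/M genes (15%), against 13.2% of 11628 tested genes with a promoter. The G2/M genes with a promoter included Ccnb1, which held an E2F match and whose expression was not analysed. The CHR letters were present in 14 of 20 G2/M genes (70%) and 4 of 25 G1/S genes (16%), against 14.4% of tested genes. A CCAAT match was present in 17 of 20 G2/M genes (85%) and 15 of 25 G1/S genes (60%), against 42.2% of tested genes. Over all 27025 genes of the table, the shares were 7.79% for E2F, 20.2% for CHR and 41.1% for CCAAT.

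An E2F match was present in 5 of the 8 called G1/S genes with a promoter (62.5%) and in 10 of the 17 others (58.8%). In the bases before the start alone, it was present in 2 of the 8 called genes (25%) and 7 of the 17 others (41.2%), and neither difference was tested. Median GC content was 60.3% in G1/S and 59% in G2/M promoters, against 52.7% in all promoters, and its part in the match counts was not tested. Of the E2F matches in members, 3 overlapped a CCAAT match. A match describes letters and not binding. When only the bases before the start were searched, the E2F count in G1/S genes was 9 and the CHR count in G2/M genes was 8.

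The promoters of Mcm6, Cdk2, Ccnb2 and Cdk1 show these elements. Mcm6 and Cdk2 are called G1/S genes with 2 E2F matches each before the start, Ccnb2 is a called G2/M gene, and Cdk1 is a G2/M gene that was not called and holds all 3 kinds of match. They were chosen after the matches were seen. Each line gives the 250 bases before the start, 5′ to 3′ on the gene's strand, with matches in capitals.
Mcm6, chr1:128359706-128359955, minus strand: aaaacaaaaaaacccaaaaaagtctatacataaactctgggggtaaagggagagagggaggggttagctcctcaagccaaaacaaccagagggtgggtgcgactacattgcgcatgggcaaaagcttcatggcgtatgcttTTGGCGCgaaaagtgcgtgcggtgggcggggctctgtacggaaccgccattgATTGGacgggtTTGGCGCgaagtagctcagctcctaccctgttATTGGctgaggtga
Cdk2, chr10:128705052-128705301, minus strand: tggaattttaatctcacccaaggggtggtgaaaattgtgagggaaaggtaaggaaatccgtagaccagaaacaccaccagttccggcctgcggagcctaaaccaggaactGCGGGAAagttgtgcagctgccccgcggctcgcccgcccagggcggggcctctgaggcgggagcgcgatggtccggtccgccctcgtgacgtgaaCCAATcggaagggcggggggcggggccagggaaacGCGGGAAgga
Ccnb2, chr9:70421555-70421804, minus strand: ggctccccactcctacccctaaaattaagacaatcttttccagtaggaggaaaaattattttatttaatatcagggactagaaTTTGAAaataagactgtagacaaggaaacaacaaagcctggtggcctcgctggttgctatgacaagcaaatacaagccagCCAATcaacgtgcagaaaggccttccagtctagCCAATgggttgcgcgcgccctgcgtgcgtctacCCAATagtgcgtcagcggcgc
Cdk1, chr10:69352913-69353162, minus strand: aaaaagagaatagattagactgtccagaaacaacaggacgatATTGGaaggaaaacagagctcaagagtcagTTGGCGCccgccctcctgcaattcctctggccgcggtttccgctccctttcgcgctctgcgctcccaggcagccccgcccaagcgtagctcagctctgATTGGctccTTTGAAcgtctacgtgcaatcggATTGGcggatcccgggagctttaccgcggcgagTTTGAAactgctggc
In Mcm6 the E2F matches lay at bases -109 to -103 and -46 to -40 counted from the start. Ccnb2 had 3 CCAAT matches, at -87, -54 and -21 by their first base. Its CHR letters lay at -167 to -162 and again at bases 5 to 10 from the start, outside the bases shown.

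Among the 8 cyclins and kinases of G1, 4 (50%) were called higher in dKO nerves, against 12.6% of all genes tested. They were 3 cyclins and the kinase Cdk2. Ccne1, which encodes the cyclin E1 that activates Cdk2 at S phase entry, read 9.11, 9.43 and 10.12 in dKO, against 8.43, 8.21 and 8.30 in control. It had the largest change of any member, 1.24 (SE 0.25, adjusted p = 0.0090), and dKO 3 stood above the other dKO arrays. Its other probe set changed by 1.39 (SE 0.18). Ccne1 was called under every alternative setting run, and its change ran from 0.96 to 1.46 with 1 array left out.

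Cdk2, the kinase partner of cyclin E, read 8.53, 8.55 and 8.93 in dKO, against 7.86, 8.10 and 8.04 in control. The groups did not overlap, and the change was 0.67 (SE 0.16, adjusted p = 0.0196), a call lost without control 1 (adjusted p = 0.062), and with the sex term (adjusted p = 0.0549). Its only other probe set lay between 2.08 and 2.44, under the limit, and averaging it in also ended the call (adjusted p = 0.146). Ccne2, which encodes cyclin E2, read 7.27, 7.16 and 7.71 in dKO, against 6.70, 6.90 and 6.64 in control. Its change was 0.63 (SE 0.18, adjusted p = 0.0365). The Ccne2 call was lost without dKO 1, dKO 3 or any one control array, and with the sex term (adjusted p = 0.0928).

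Ccnd2, which encodes cyclin D2, read 11.42, 11.48 and 11.36 in dKO, against 11.00, 10.59 and 10.70 in control. The change was 0.66 (SE 0.15, adjusted p = 0.0173) on the brightest of its 7 probe sets. That call was lost without dKO 1, dKO 2, control 2 or control 3 (adjusted p up to 0.0694). All 7 Ccnd2 probe sets were called higher, and the other 6 changed by 1.22 to 1.66. With all of them averaged the Ccnd2 change was 1.28 (adjusted p = 0.000644), against 1.32 for Ccne1 averaged in the same way.

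The other D-type cyclins and their kinases were not called. Ccnd1, which encodes cyclin D1, read 11.95, 12.03 and 12.06 in dKO, against 12.17, 12.14 and 12.11 in control. Every dKO value lay below every control value, but the change was only -0.13 (SE 0.13, adjusted p = 0.522, 95% interval -0.42 to 0.16), and its other probe sets changed by -0.39 and -0.19 without a call. Ccnd3, the cyclin D3 gene, lay higher in dKO on all arrays, with a change of 0.40 (SE 0.13, adjusted p = 0.070). Cdk4 read 10.52, 10.71 and 10.79 in dKO, against 10.81, 10.48 and 10.66 in control, and Cdk6 read 10.44, 10.44 and 10.01, against 10.32, 9.99 and 9.99. Both kinases overlapped between groups, with 95% intervals of -0.32 to 0.37 for Cdk4 and -0.21 to 0.60 for Cdk6, so a change of 1.5-fold in Cdk6 lies within the interval. With arrays centred to a common median, the Cdk4 change was -0.05.

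**Figure D3:**
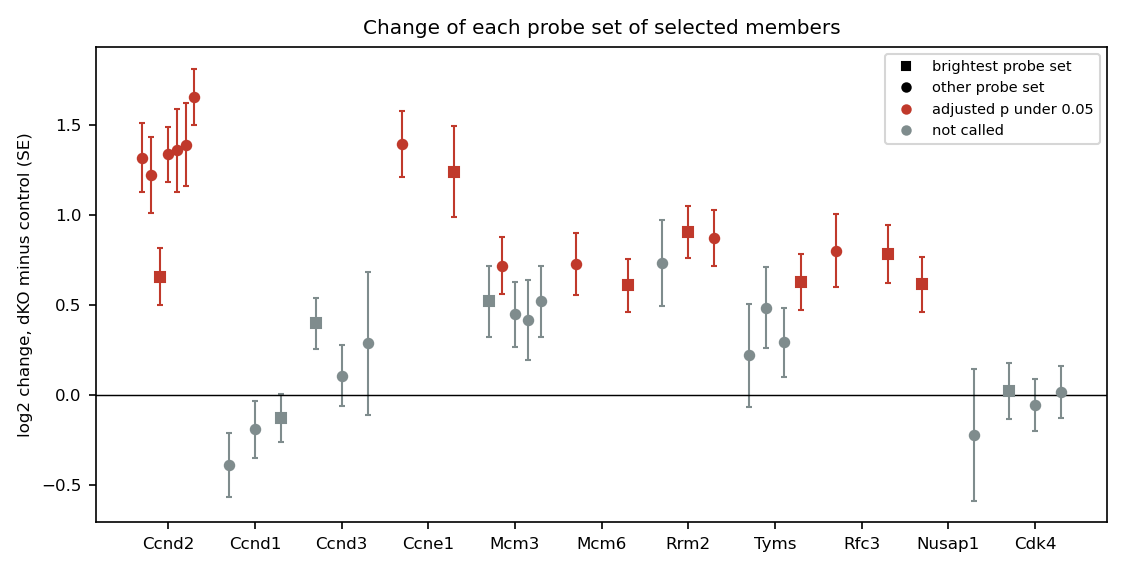
Log2 change with SE (y axis) of every probe set above the limit for 11 members (x axis). Squares mark the brightest probe set of each gene, and red marks an adjusted p under 0.05 over all probe sets. All 7 Ccnd2 probe sets are red, and the brightest one has the smallest change of them, 0.66.

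None of the 5 transcription factors and restriction point genes was called by limma. At an unadjusted p under 0.05 0 were higher and 1 was lower, against 2842 and 2145 of all 14550 genes. E2f1, an activating E2F factor, read 7.72, 8.57 and 7.59 in dKO, against 6.97, 7.55 and 7.73 in control, and the groups overlapped (change 0.54, SE 0.29, adjusted p = 0.233). E2f2 and E2f3, the other activating factors, changed by 0.32 and 0.13, also with overlapping groups. Their other probe sets changed by -0.10 and -0.15. Myc, a growth-promoting transcription factor gene, read 8.31, 8.39 and 8.86 in dKO, against 8.31, 8.33 and 7.01 in control. Its change of 0.64 (SE 0.35, adjusted p = 0.236) fell to 0.21 without control 3.

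Rb1, which encodes the retinoblastoma protein that holds E2F back, had the lowest change of any member. It read 8.06, 7.61 and 8.12 in dKO, against 8.63, 8.31 and 8.44 in control, with no overlap. The change was -0.53 (SE 0.18, adjusted p = 0.0706), not past the threshold. With centred arrays it was -0.61 and called lower (adjusted p = 0.0402). The dimmer Rb1 probe set changed by 0.35 the other way, and the average of both by -0.09, so the probe sets disagreed.

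All 9 genes of origin licensing and of the replicative helicase had a change above 0, from 0.36 to 0.77, against 50.6% of all genes tested. Of these 9, 3 (33.3%) were called higher, against 12.6% of all genes. Gmnn, which encodes geminin, the inhibitor of Cdt1, read 10.19, 10.27 and 10.64 in dKO, against 9.65, 9.55 and 9.60 in control. The change was 0.77 (SE 0.16, adjusted p = 0.0106), and it was called under every alternative setting. Cdt1, which loads the helicase onto origins, read 9.92, 9.86 and 10.15 in dKO, against 9.40, 9.17 and 9.33 in control. Its change was 0.68 (SE 0.15, adjusted p = 0.0132), a call lost without control 2 (adjusted p = 0.0565). The loading factor and its inhibitor were thus both called higher.

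Mcm6, one of the 6 subunits of the MCM helicase, read 11.76, 11.70 and 11.89 in dKO, against 11.20, 11.02 and 11.30 in control. The change was 0.61 (SE 0.14, adjusted p = 0.0174) and 0.73 on its other probe set, with the call lost without dKO 1 or control 2. For the other subunits, Mcm2, Mcm3, Mcm4, Mcm5 and Mcm7, the changes were 0.54, 0.52, 0.51, 0.36 and 0.36 (adjusted p = 0.0538, 0.0918, 0.0715, 0.180 and 0.119). On the brightest probe sets, all dKO values lay above all control values for each of these except Mcm5. The other probe sets of Mcm2, Mcm3 and Mcm7 included ones that overlapped between groups. Averaging probe sets brought Mcm3 and Mcm4 past the threshold (adjusted p = 0.0305 and 0.0498), and an intensity trend in the spread brought Mcm4 and Mcm7 past it. Mcm2 passed it without control 1 and with a limit of 6. Cdc6, which recruits the helicase with Cdt1, changed by 0.44 (SE 0.17, adjusted p = 0.106) with no overlap.

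Of the 3 genes of nucleotide supply, 2 (66.7%) were called higher, against 12.6% of all genes tested. Rrm2, the regulated subunit of ribonucleotide reductase, read 11.98, 11.89 and 12.05 in dKO, against 11.13, 11.17 and 10.91 in control. The change was 0.90 (SE 0.14, adjusted p = 0.0029), which was the lowest p among the members, and it was called under every alternative setting. Rrm1, the subunit that is more constant through the cycle, changed by 0.22 (SE 0.14, adjusted p = 0.317), with overlapping groups. Its other probe set above the limit changed by -0.03. Tyms, which encodes the thymidylate synthase that makes the thymidine precursor, read 6.74, 6.78 and 7.06 in dKO, against 6.14, 6.18 and 6.36 in control. Its change was 0.63 (SE 0.15, adjusted p = 0.0199). The Tyms call was lost without control 1 or control 2, with the sex term (adjusted p = 0.0559), and with its 4 probe sets averaged (0.41, adjusted p = 0.0807).

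All 7 genes of the replication fork had a change above 0, against 50.6% of all genes tested. Of these 7, 2 (28.6%) were called higher, against 12.6% of all genes. Rfc3, a subunit of the clamp loader, read 8.47, 8.77 and 8.73 in dKO, against 8.03, 7.70 and 7.90 in control. The change was 0.78 (SE 0.16, adjusted p = 0.0092), with a like value of 0.80 on the other probe set, and it was called under every alternative setting. Lig1, the ligase that joins Okazaki fragments, read 10.96, 11.02 and 10.74 in dKO, against 10.27, 10.44 and 10.35 in control. Its change was 0.55 (SE 0.14, adjusted p = 0.0255). The Lig1 call was lost without dKO 1, dKO 2 or any one control array, with centred arrays (adjusted p = 0.0593) and with the sex term (adjusted p = 0.0687).

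Pcna, the sliding clamp that Rfc3 helps to load, read 12.24, 12.26 and 12.19 in dKO, against 12.14, 12.15 and 12.13 in control. Every dKO value was above every control value, yet the change was only 0.09 (SE 0.12, 95% interval -0.20 to 0.38). Prim1 and Pola1, the primase and polymerase subunits that start each new strand, changed by 0.46 and 0.39 (adjusted p = 0.131 and 0.109), and the other Prim1 probe set was called higher (0.47, adjusted p = 0.0482 over probe sets). Fen1, the flap nuclease, changed by 0.35, and Rfc4, another clamp loader subunit, by 0.32. The Rfc4 value rested on dKO 3, at 10.33 against 9.08 and 9.02 on the other dKO arrays, and was -0.10 without it.

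**Figure D4:**
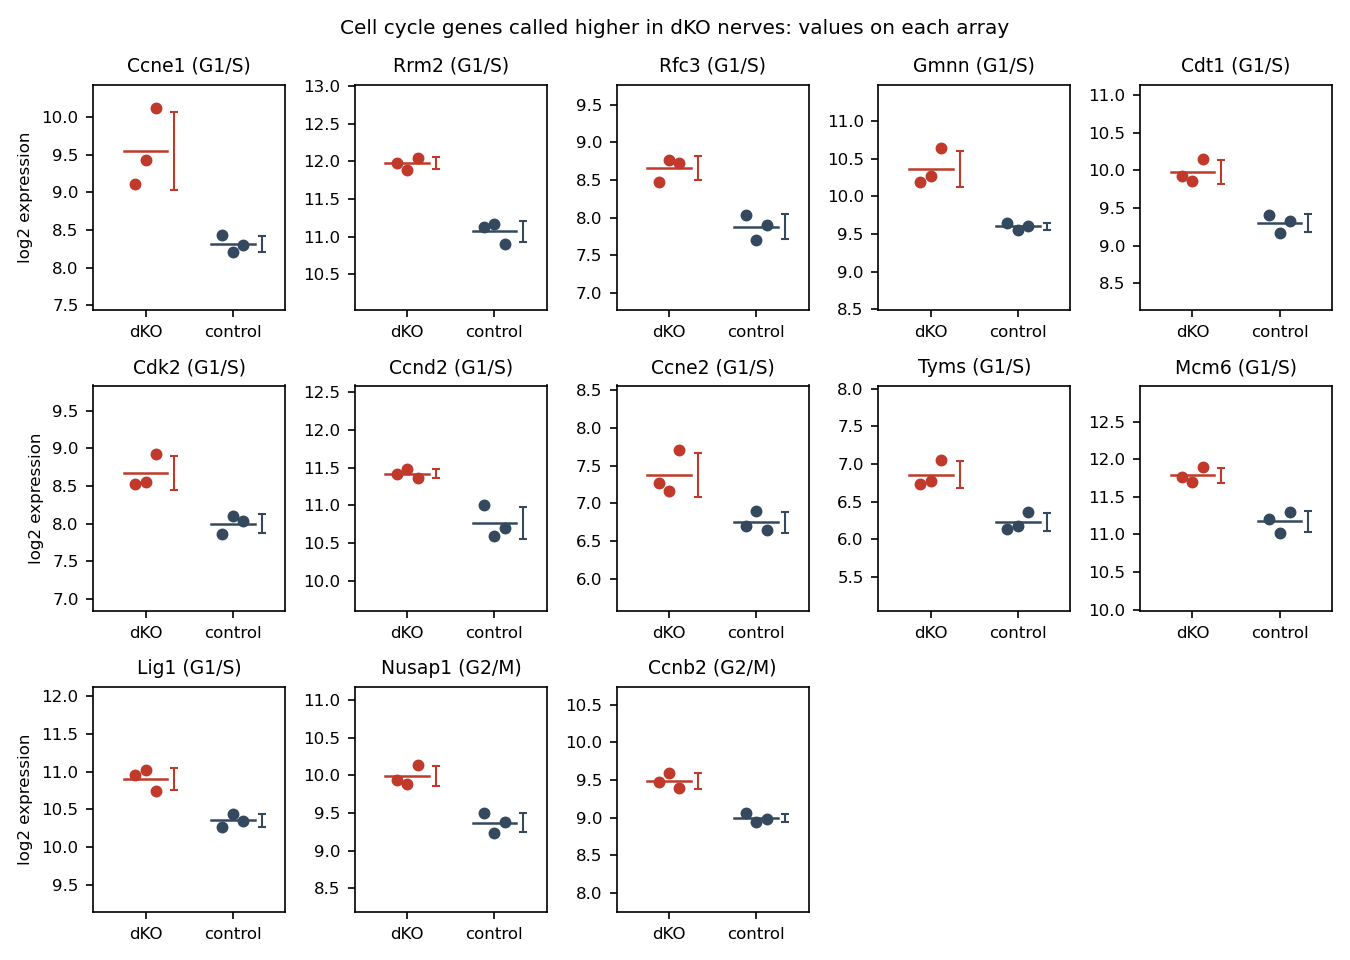
Log2 expression (y axis, a span of 3 in every panel) on each array of the 13 members called higher, with dKO on the left and control on the right of each panel. Points are arrays, horizontal lines are means and bars are SDs (n = 3), and in every panel all dKO points lie above all control points.

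Among the 8 measured cyclins and kinases of mitotic entry, 1 (12.5%) was called higher, near the 12.6% of all genes tested. Ccnb2, which encodes cyclin B2, read 9.47, 9.60 and 9.39 in dKO, against 9.06, 8.95 and 8.99 in control. The change was 0.49 (SE 0.13, adjusted p = 0.0327), and the call was lost without any one array other than dKO 3, with centred arrays (adjusted p = 0.0799) and with the sex term (adjusted p = 0.0775). Cdk1, the kinase that drives mitosis, read 9.74, 9.97 and 9.54 in dKO, against 9.21, 9.34 and 9.40 in control, with no overlap. Its change was 0.43 (SE 0.16, adjusted p = 0.0842), and it was called only without dKO 3 (adjusted p = 0.0422). Ccna2, which encodes the cyclin A2 of S phase and G2, changed by 0.08 (SE 0.15, 95% interval -0.26 to 0.43). Its other probe set read 9.71, 9.79 and 9.93 in dKO, against 9.44, 9.48 and 9.55 in control, a change of 0.32 without overlap or a call.

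The mitotic kinases were not called. Aurkb, the kinase of the chromosomal passenger complex, read 9.09, 9.13 and 8.88 in dKO, against 9.0, 8.46 and 8.56 in control (change 0.36, SE 0.18, adjusted p = 0.194). Plk1, a kinase of spindle assembly, read 6.62, 7.10 and 6.68 in dKO, against 6.68, 6.66 and 6.63 in control (change 0.15, SE 0.16), and its change above 0 rested on dKO 2. Aurka and Nek2, kinases of the centrosome, changed by 0.27 and 0.35, and Cdc25c, the phosphatase that activates Cdk1, by 0.45 (SE 0.27, adjusted p = 0.279). On the brightest probe sets, Nek2 alone of these 5 genes had no overlap between groups. The other Aurka and Cdc25c probe sets changed by -0.20 and -0.0047.

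Of the 6 genes of the spindle checkpoint and anaphase, 0 were called by limma. At an unadjusted p under 0.05, 3 were higher, against 2842 of all 14550 genes. The checkpoint genes Mad2l1, Bub1b, Ttk and Bub1 changed by 0.42, 0.43, 0.33 and 0.28 (adjusted p = 0.0542, 0.0870, 0.140 and 0.191). On the brightest probe set of each, every dKO value lay above every control value. The other Ttk and Bub1 probe sets overlapped between groups, and a dim Bub1b probe set changed by -0.14. With probe sets averaged, Bub1b, Ttk and Bub1 changed by 0.23, 0.18 and 0.33. Bub1b passed the threshold without control 1 (adjusted p = 0.0436). Mad2l1 passed it with a low-value limit of 6, with an intensity trend and with probe sets averaged. Cdc20 and Ube2c, which act with the ubiquitin ligase that triggers anaphase, changed by 0.36 and -0.06 with overlapping groups. The other Cdc20 probe sets changed by -0.03 and 0.21, and Ube2c changed by 0.13 without control 1.

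Among the 7 genes of the spindle, centromere and cytokinesis, Nusap1 alone (14.3%) was called higher, near the 12.6% of all genes tested. Nusap1, a microtubule-bundling protein of the spindle, read 9.94, 9.89 and 10.14 in dKO, against 9.50, 9.24 and 9.38 in control (change 0.61, SE 0.14, adjusted p = 0.0185). The call was lost without control 2 or control 3, and the other Nusap1 probe set changed by -0.22 (SE 0.36) without a call. With both averaged the change was 0.20 (adjusted p = 0.544). Cenpa, the histone variant of centromeres, changed by 0.65 (SE 0.21, adjusted p = 0.0635) with no overlap, while its other probe sets changed by 0.01 and -0.48. Birc5, which encodes survivin, changed by 0.29, Tpx2 by 0.12, Prc1 by 0.06, Cenpf by -0.04 and the spindle motor gene Kif11 by -0.06. Tpx2, Prc1, Cenpf and Kif11 overlapped between groups. The other Cenpf probe set above the limit changed by 0.42, with no overlap and no call, and the other Tpx2 probe set above it by -0.11.

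The common proliferation markers were not called either. Mki67, which encodes the Ki-67 antigen of cycling cells, read 12.59, 12.53 and 12.57 in dKO, against 12.59, 12.31 and 12.36 in control. Its change was 0.14 (SE 0.14, adjusted p = 0.508), with a 95% interval of -0.17 to 0.46. Top2a, the topoisomerase of chromosome condensation, read 10.35, 10.38 and 9.96 in dKO, against 10.12, 10.02 and 10.05 in control. The change was 0.17 (SE 0.16, adjusted p = 0.497, 95% interval -0.19 to 0.53). For Mki67, control 1 lay level with the highest dKO array, and the groups overlapped.

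**Figure D5:**
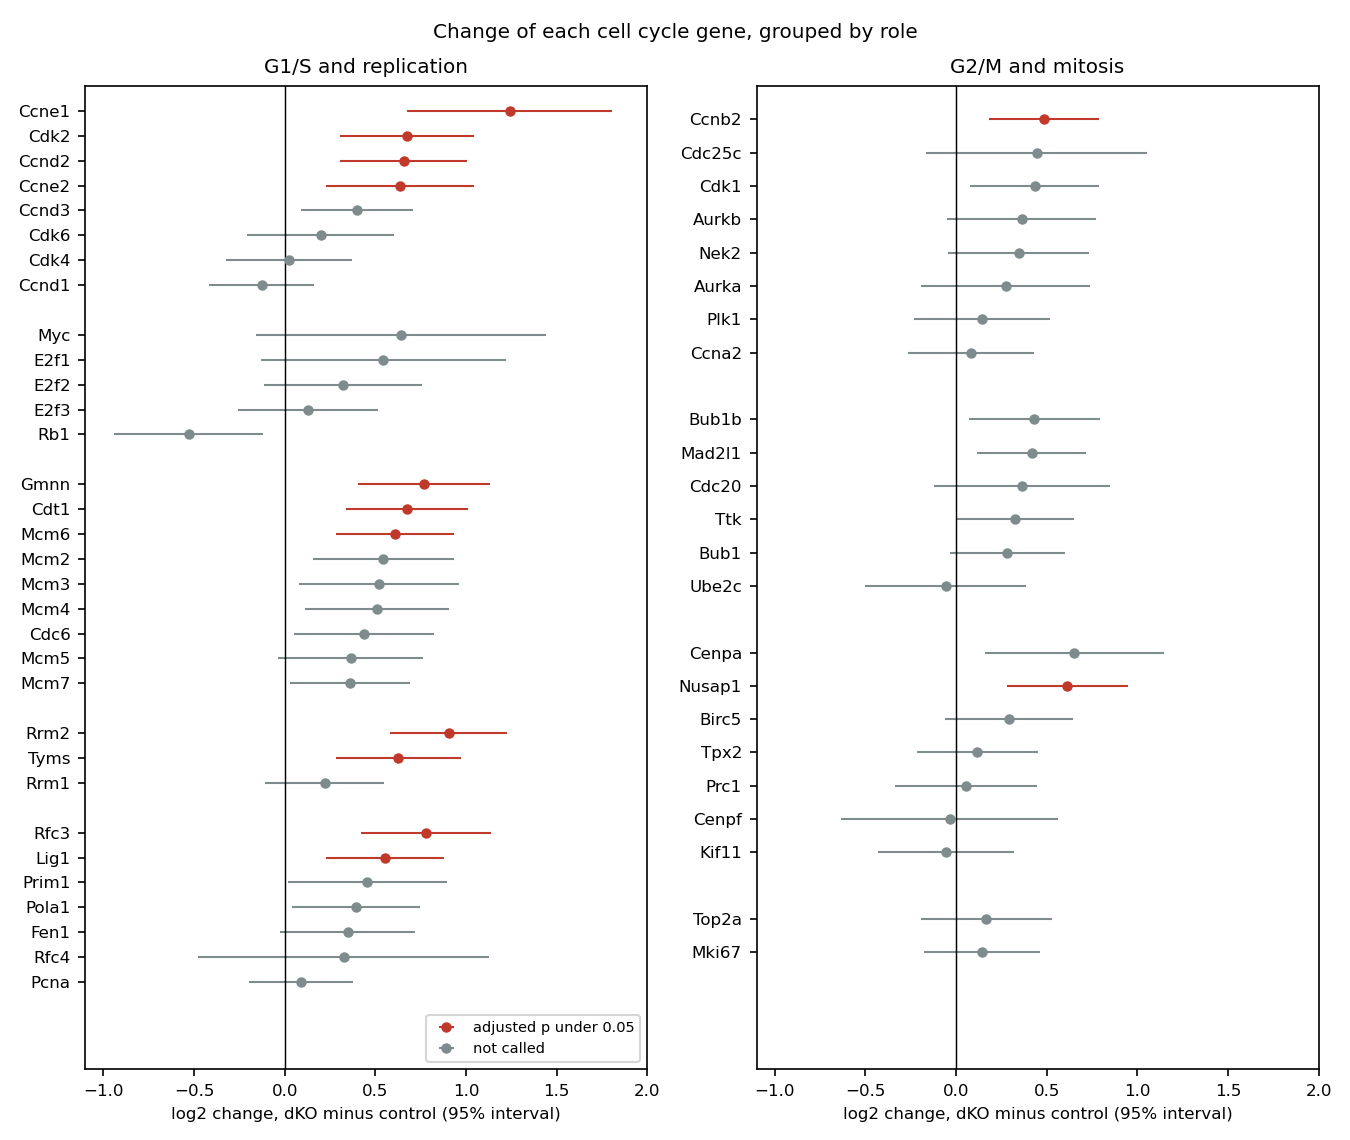
Log2 change, dKO minus control, with its 95% interval (x axis) for each of the 55 tested members, in blocks by role, with G1/S and replication on the left and G2/M and mitosis on the right. Red points passed an adjusted p under 0.05, and they number 11 on the left and 2 on the right.

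Other cell cycle genes were counted in the same way, against 12.6% of all genes called higher. Of 37 other replication and S phase genes tested, 10 (27%) were called higher and 1 lower, with a median change of 0.31. Of 50 other genes of G2 and mitosis, 6 (12%) were called higher and 0 lower, with a median of 0.25. At an unadjusted p under 0.05, 13 of these 50 were higher and 0 lower, against 2842 and 2145 of all 14550 genes. The first count was between 1 and 6 without any one array other than dKO 3, lowest without control 2, and the second was 1 to 3 without any one array other than dKO 3. Among the first, Dtl, which marks Cdt1 for destruction, changed by 0.80 (SE 0.20), Prim2, the large primase subunit, by 0.80 (SE 0.14), and Rpa2, a single-strand binding protein, by 0.73 (SE 0.17).

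The gene that went the other way was Orc1, the origin recognition subunit, which read 6.89, 6.72 and 5.66 in dKO, against 8.34, 8.07 and 8.0 in control (change -1.71, SE 0.30, adjusted p = 0.0054). Only 1 of its 2 probe sets above the limit was called, and with probe sets averaged it was not (-0.79, adjusted p = 0.0663). Among the mitosis genes, Cks2 and Cks1b, which encode the small subunits of cyclin-dependent kinases, changed by 0.97 (SE 0.18) and 0.61 (SE 0.15), with all of their probe sets above the limit called. Pttg1, which encodes securin, changed by 0.62 (SE 0.17) and Cdca5, which encodes the cohesin factor sororin, by 0.54 (SE 0.14). The calls of Dtl, Rpa2, Pttg1, Cdca5 and Cks1b were each lost without some single arrays, and those of Prim2 and Cks2 were not. With probe sets averaged, Dtl, Pttg1 and Cdca5 were not called (adjusted p = 0.0992, 0.0563 and 0.0784).

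The inhibitors of cyclin-dependent kinases moved separately. Cdkn1a, which encodes p21, was at 9.30, 9.94 and 9.38 in dKO, against 12.20, 11.30 and 11.73 in control, and Cdkn1b, which encodes p27, at 10.19, 9.78 and 9.53, against 11.23, 10.84 and 11.21. Both were called lower, while Cdkn2b, which encodes p15, was at 8.37, 8.52 and 9.18 in dKO, against 7.5, 7.43 and 7.74 in control, and was called higher. Cdkn1c, Cdkn2c, Cdkn2d and Cdkn2a changed by -0.32, 0.27, -0.08 and 0.08 and were not called.

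Markers of other nerve cells also differed between the groups. For comparison, 12.6% of all genes tested were called higher and 9.38% lower. At an unadjusted p under 0.05, 2842 of all 14550 genes were higher and 2145 lower. Of 12 macrophage markers 4 were called higher and 0 lower, and the log2 of their summed level was 12.20 to 13.37 in dKO, highest in dKO 3, against 11.61 to 11.87 in control. Of 8 fibroblast markers 5 were called higher (15.48 to 15.55 in dKO, against 15.27 to 15.39 in control), and of 8 pericyte and smooth muscle markers 4 (11.91 to 12.33, against 11.44 to 11.58). Of 6 perineurial markers 3 were higher and 1 lower (11.20 to 11.51, against 10.67 to 10.71). Of 8 endothelial markers 0 were called (10.47 to 10.96, against 9.98 to 10.42), with 3 higher at an unadjusted p under 0.05. The 8 Schwann cell markers summed to 13.30 to 14.02 in dKO, against 14.64 to 14.77 in control. Of 5 skeletal muscle markers (6.82 to 6.98 in dKO, against 6.65 to 7.20 in control) and 2 erythroid markers (6.89 to 8.77, against 7.34 to 8.03), 0 were called by limma, also at an unadjusted p under 0.05. The fibroblast marker Dpt was under the limit of 4 on 2 of the 3 control arrays, and the muscle marker Acta1 averaged 3.91 in dKO, against 4.16 in control. The part of these cells in the cell cycle values was not tested.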

How the data were processed

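Values were the authors' log2 expression per probe set, as deposited. They were made with GCOS 1.2 and GCRMA, per the submitters' processing notes, with settings not given in the sources used here. No header states the scale, and the range of 1.66 to 14.94 was taken as log2. Sorted values of the 6 arrays matched within 0.01, so a shift of all genes together would not show. Of 45101 probe sets, 34958 carried 1 symbol in the platform annotation, and symbols were updated by gene ID with RefSeq (GRCm38.p6). Each gene was represented by its brightest probe set. Genes at a log2 of at least 4 on at least 3 arrays (14550) were fitted with limma 3.58.1 (lmFit, eBayes) in R 4.3.3, without covariates, two-sided. Probe set p-values were adjusted over 33975 probe sets. The fit was tested on simulated data with planted changes larger than those of all members but Ccne1, so smaller changes were not covered. Array number limits precision (median SE 0.17). How many pups made a sample is not in the labels, and p-values cover only the spread among these arrays. No 2 arrays held identical values.

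The members and lists were chosen with earlier results of these data known. All 56 members were named by role. Of each other cell cycle list, up to 4 called genes with the largest change were named, with all 7 kinase inhibitors. Alternatives were a low-value limit of 6 or none, averaged probe sets (those under the limit included), centred arrays, an intensity trend, a replicate block, sex read from Xist (log2 over 8), and each array left out.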

Additional observations from a re-analysis of the deposited data

How the results depend on the processing

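The direction of the G1/S and G2/M medians held under every alternative run. With each array left out in turn, the G1/S median ran from 0.40 to 0.53 and the G2/M median from 0.26 to 0.33, while the G1/S count of genes called higher ran from 5 to 10 and the G2/M count from 0 to 3, with 0 lower in each. Averaged probe sets gave a G2/M median of 0.19. With centred arrays the median of all genes was -0.070, 1 G1/S gene was called lower and 1 G2/M gene higher. Same-numbered arrays did not deviate together (correlations 0.04, -0.12 and -0.23), so replicate numbers were not taken as pairs. The replicate block left 9 G1/S genes and 1 G2/M gene called higher, with 1501 of all genes higher and 1056 lower, and ended the calls of the members Ccne2, Lig1 and Ccnb2, and of Rbl2, Rpa2, Cks1b, Pttg1 and Cdca5, and the sex term left 7 G1/S genes and 1 G2/M gene. With an array left out, 1246 to 1585 of all genes were called higher and 891 to 1331 lower. For other replication genes the count higher was 4 with averaged probe sets (0 lower), 5 with the replicate block, 6 with the sex term and 1 to 10 with an array left out. For other mitosis genes it was 1 with the block, 1 with the sex term and 1 to 4 with an array left out. Of the 18 E2F, pocket protein, MuvB and Myc family genes, 1 (Mycn) was called lower with a limit of 6, with centred arrays or with a trend, 2 (Rbl2 and E2f8) were called higher with averaged probe sets, and 0 were called higher with centred arrays, the block or the sex term; with an array left out, 0 to 1 were higher and 0 to 2 (Mycn and Lin37) lower. Searching only the bases before the start gave 9 G1/S genes with an E2F match and 8 G2/M genes with the CHR letters. The causes were not tested.

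Some genes that were not called changed sign. With averaged probe sets Cdk4, E2f3, Tpx2 and Cenpf were at -0.0052, -0.011, -0.027 and 0.19. With centred arrays Cdk4 and Prc1 were at -0.053 and -0.020, and with the sex term Cenpf and Kif11 were at 0.065 and 0.0065. With an array left out, Cdk4 ran from -0.062 to 0.10, Prc1 from -0.018 to 0.19, Plk1 from -0.0048 to 0.24, Rfc4 from -0.10 to 0.55, Ube2c from -0.17 to 0.13, Cenpf from -0.23 to 0.28, E2f3 from -0.031 to 0.22, Kif11 from -0.20 to 0.039, Cdkn2a from -0.039 to 0.21 and Cdkn2d from -0.24 to 0.061. Of the 13 called members, 4 (Ccne1, Gmnn, Rfc3 and Rrm2) were called in all 13 alternatives.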

Other observations

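The 18 other regulators came from the E2F family, the pocket proteins, the MuvB complex and the Myc and Mxd families. Of these, 1 (5.56%) was called higher and 0 lower, against 12.6% and 9.38% of all genes, with a median log2 change of 0.21. At an unadjusted p under 0.05 4 were higher and 2 lower, against 2842 and 2145 of all 14550 genes. The gene called was Rbl2, which encodes the pocket protein p130, found in the repressor complex of resting cells. It read 7.87, 7.89 and 7.71 in dKO, against 6.77, 7.19 and 7.41 in control (change 0.70, SE 0.18, adjusted p = 0.0290), and the call was lost without dKO 1, dKO 2, control 1 or control 2, with centred arrays (adjusted p = 0.0506), and with the sex term. Mycn, a Myc family gene of the same list chosen after its values were seen, read 8.02, 7.88 and 7.96 in dKO, against 9.18, 9.23 and 8.15 in control. Its change of -0.90 (SE 0.28) did not pass the threshold (adjusted p = 0.0520), and control 3 stood apart from the other controls. Mycn was called lower without control 3 (-1.25, adjusted p = 0.00216), with a low-value limit of 6, with centred arrays and with an intensity trend.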
